A study of Homo sapiens with 12 samples.

Results

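The comparison described here is that of cells given CPI203 together with an inhibitor of the IRAK kinases (the Combo group) with cells given CPI203 alone. Arrays were chosen by their treatment labels, Combo or CPI203, and paired by cell line, which gave 6 of the 12 arrays of the study, 3 in each group. The lines OCI-LY3, OCI-HBL1 and OCI-LY10 are established human lines of ABC-DLBCL, the activated B cell type of diffuse large B cell lymphoma, and values are given in that order throughout. CPI203 cells received this BET bromodomain inhibitor at 500 nM. Combo cells received CPI203 at 500 nM and the IRAK inhibitor (IRAKi, whose chemical identity is not stated) at 50 µM. Both groups carry a label time of 24 h, while the treatment protocol names 18 h of CPI203 and 6 h of IRAKi. By their labels the 2 groups differ by the IRAK inhibitor and share the BET inhibitor and its dose. How the 18 h and 24 h relate is not stated, so equal exposure to CPI203 cannot be checked. The other 6 arrays, Control (24 h by its label, with no further description) and IRAKi alone (50 µM, 6 h by its label), were used for the pooled spread and to set the same genes beside the change without CPI203. Each group holds 1 array per line, so the replicates are lines, and a p-value reflects no more than how these arrays differ between lines.

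IRAK kinases dock on the adaptor MYD88 below Toll-like and interleukin-1 receptors and pass the signal through TRAF6 to NF-kB and MAP kinases. ABC-DLBCL cells are known for chronic signalling through this route and through the B cell receptor. BET proteins bind acetylated chromatin and bring in the elongation kinase P-TEFb, and their inhibition is known to lower MYC in many lymphoma lines.

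Array medians of the 6 arrays lay between 4.69 and 4.72 on the log2 scale of the deposited values, and the correlation between any 2 of them between 0.902 and 0.987. Of 8 B cell markers tested, the mean per array was 8.80 to 10.43. HLA-DRA was an exception in OCI-LY10, at 4.60 with CPI203 and 3.61 with Combo, against 12.29 to 13.48 in the other lines. Markers of T cells, myeloid cells and NK cells had array means of 3.92 to 4.99, near the level of 4.20 above which a probe set had to read in at least 3 arrays to be tested. Single exceptions reached 7.58 for a T cell marker, 6.60 for a myeloid one and 9.11 for an NK cell one, and the parts of other cell types were not tested. Poly-A control transcripts, added to every RNA sample, were higher in Combo than in CPI203 by 0.62 in OCI-LY3 and 0.09 in OCI-LY10 and stood at -0.18 in OCI-HBL1 (mean 0.17 ± 0.40, SD, n = 3). The IRAKi array of OCI-LY10, which is outside the 6, had non-specific control probe sets at 4.00, against 3.64 to 3.79 on the other 11 arrays.

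Among genes that passed the test, those with the highest changes on adding IRAKi to CPI203 rose from low levels with CPI203 alone. They were led by the cilium gene CFAP53, the meiotic gene MSH4 and TNFSF13B, which encodes the B cell survival cytokine BAFF. The lowest changes that passed were led by the B-lineage transcription factor gene BCL11A, the tRNA methyltransferase gene METTL1 and the zinc finger factor gene ZBTB32. Of 13120 genes tested, limma called 612 (4.66%) at an adjusted p below 0.05, with 257 higher (1.96%) and 355 lower (2.71%). At a change of at least 2-fold, 79 were higher (0.602%) and 56 lower (0.427%). The median level with CPI203 was 6.92 for the genes called higher and 8.21 for those called lower, against 7.10 over all genes tested. Of the genes called higher, 35 (13.6%) had a CPI203 mean under the filter level, against 9.65% of all genes tested, and 27 (10.5%) were tested only because of their level in Combo, against 3.75%. Those 27 had to differ, and with the filter set on the other 9 arrays 228 genes were called higher and 356 lower. The median change was 0.82 for the genes called higher and -0.72 for those called lower, against -0.01 for all genes. In RNA from whole cultures, fewer cells that express a gene and less of its RNA per cell cannot be told apart.

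All 612 called genes moved one way in the 3 lines, as did 43.4% of all genes tested. The calls were made on these same line changes, so that agreement is not independent of the calling. The calls rest on having all 3 lines. With OCI-LY3, OCI-HBL1 or OCI-LY10 left out in turn, limma called 0, 3 and 0 genes higher and 0, 0 and 0 lower. In those fits 795, 1083 and 787 genes were higher and 1010, 1323 and 1066 lower at an unadjusted p below 0.05, against 1160 and 1563 with all lines. When each array was set relative to its poly-A controls, the median gene stood at -0.18, and 78 genes were called higher and 314 lower, so that 19.9% of calls were higher in place of 42%. A fit of the Combo and CPI203 arrays alone called 102 higher and 96 lower.

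**Figure D1:**
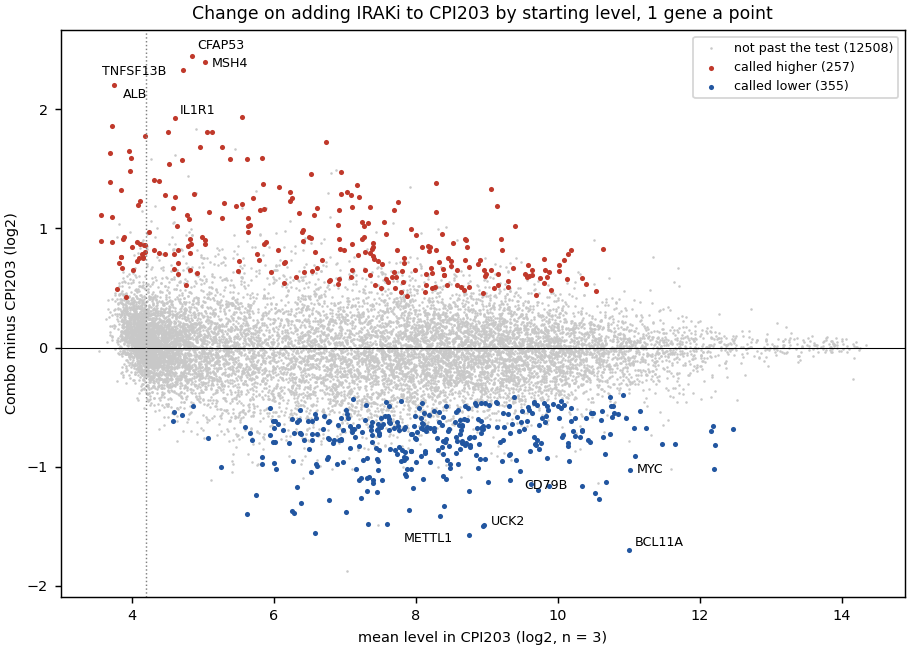
Change on adding IRAKi (Combo minus CPI203, log2, y axis) against the mean level with CPI203 (log2, n = 3, x axis), 1 tested gene a point. The 257 genes called higher are red and run past the dotted filter level of 4.20, with 35 to the left of it, and the 355 called lower are blue and all lie to the right of it.

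Among the genes called higher, TNFSF13B encodes a ligand that B cells bind through receptors of the TNF receptor family. It read 3.83, 4.14 and 6.20 with CPI203 and 6.78, 6.35 and 8.03 with Combo. Every Combo array was above every CPI203 array, and 2 of the CPI203 arrays were under the filter level. The change was 2.33 ± 0.31 (log2, SE, n = 3, adjusted p = 0.00946), a 5.03-fold rise, and its other probe set changed by 1.24. Each SE given here is limma's, from a spread pooled over all 12 arrays, and is not the spread of the 3 line changes. IL1R1, the interleukin-1 receptor chain that signals through MYD88 and IRAK kinases, read 4.54, 4.67 and 4.60 with CPI203 and 7.22, 6.05 and 6.32 with Combo. The groups did not overlap, and the change was 1.93 ± 0.45 (adjusted p = 0.0453). IL1R1 had stood at 7.85, 4.86 and 5.70 in Control, so the Combo array of OCI-LY3 remained under that line's Control while the other lines were above theirs.

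MSH4, a mismatch repair family member of meiotic recombination, read 4.59, 4.53 and 5.96 with CPI203 and 7.52, 6.64 and 8.13 with Combo. All Combo arrays were above all CPI203 arrays, by 2.40 ± 0.32 on average (adjusted p = 0.00946). CFAP53 read 4.17, 4.36 and 6.02 with CPI203 and 7.43, 5.86 and 8.60 with Combo. OCI-HBL1 was lowest in Combo, where it stayed under the CPI203 level of OCI-LY10, but each line rose over its own CPI203 array. Its change of 2.45 ± 0.29 (5.46-fold, adjusted p = 0.00804) was the highest called. Without OCI-HBL1, CFAP53 was 1 of the 3 genes still called.

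Several of the other genes with the highest changes are known from tissues other than B cells. ALB, serum albumin, read 3.37, 3.51 and 4.38 with CPI203 and 5.43, 5.17 and 7.27 with Combo, a rise of 2.20 ± 0.32 (adjusted p = 0.0106) from levels near background. ALB, DNAH12, DNAH10 and TLL2 are among the 27 genes that were tested only because of their level in Combo, and so had to differ. NEB, the muscle filament gene nebulin, rose by 1.94 ± 0.29, and GCM1, a transcription factor gene of the placenta, by 1.78 ± 0.26. GALNT3, whose enzyme starts mucin-type O-glycans, rose by 1.81 ± 0.28, with 2.50, 0.84 and 2.09 in the 3 lines. RGS5, a regulator of G protein signalling, rose by 1.69 ± 0.23 and had its largest change, 2.57, in OCI-HBL1. The dynein heavy chain genes DNAH12 and DNAH10, which encode motors of cilia, rose by 1.86 ± 0.38 and 1.66 ± 0.33 from CPI203 levels under the filter level in all lines. The rest of the 15 highest were TLL2, APOLD1, ZNF333 and ZC3H6, at changes of 1.68 to 1.81, and the other probe set of ZC3H6 above the filter stood at -0.02.

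Among the genes called lower, BCL11A read 10.96, 11.22 and 10.84 with CPI203 and 9.77, 9.56 and 8.59 with Combo. The groups did not overlap, and the change of -1.70 ± 0.23 (adjusted p = 0.00946) left 3.24-fold less signal with Combo. All 7 of its probe sets above the filter were lower, by between -1.94 and -0.42. METTL1, which places 7-methylguanosine on tRNA, read 8.59, 8.79 and 8.86 with CPI203 and 6.52, 7.89 and 7.11 with Combo. All Combo arrays were lower, least in OCI-HBL1, and the change was -1.58 ± 0.25 (adjusted p = 0.0141). RBM12, an RNA-binding protein gene, read 9.28, 8.60 and 8.95 with CPI203 and 8.07, 7.05 and 7.21 with Combo, at -1.50 ± 0.19 (adjusted p = 0.0083).

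BMF, a pro-apoptotic BH3-only member of the BCL2 family, read 7.51, 7.09 and 7.38 with CPI203 and 6.17, 5.75 and 5.61 with Combo. The lines moved almost alike, at -1.34, -1.34 and -1.77, and the change was -1.48 ± 0.15 (adjusted p = 0.00505). Another probe set of BMF stood at 0.20, and one of UCK2, a pyrimidine salvage kinase gene, at 0.01 where the chosen one stood at -1.49 ± 0.24. ZBTB32, a zinc finger transcription factor gene, read 5.47, 7.97 and 6.31 with CPI203 and 4.24, 6.32 and 4.53 with Combo, at -1.55 ± 0.32 (adjusted p = 0.0311). The levels overlap between lines, and each line fell. ARID5B, a chromatin regulator gene, changed by -1.38 ± 0.17 with -1.38, -1.41 and -1.35 in the 3 lines, and KCNA3, a potassium channel gene of lymphocytes, by -1.31 ± 0.18. The rest of the 15 lowest were RAB33A, ZNF710, KLHL14, TLCD1, ZNF860, ICAM2 and CD24, at changes of -1.48 to -1.34. Probe sets of ZNF710 disagreed in sign, the highest at 0.06.

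**Figure D2:**
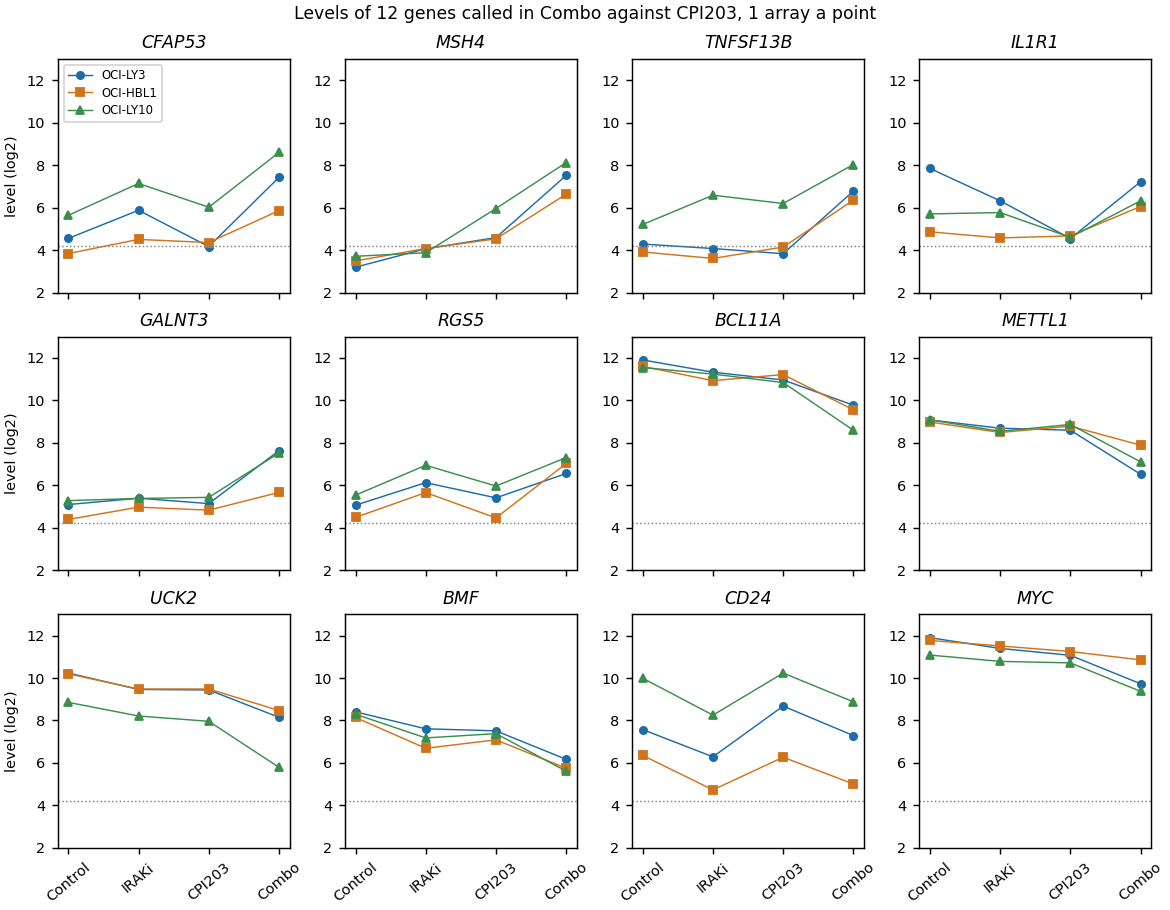
Levels (log2, y axis) of 12 called genes in the 4 groups (x axis), 1 array a point, lines joining the arrays of 1 cell line, and the filter level of 4.20 dotted. TNFSF13B, MSH4 and IL1R1 are higher in all Combo arrays than in all CPI203 arrays, and BCL11A, METTL1 and BMF are lower.

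The 3 lines agreed only in part. Past 2-fold, 1 array against 1 array and with no test, 184 genes (1.4%) were higher and 219 (1.67%) lower in OCI-LY3. In OCI-HBL1 157 (1.2%) were higher and 157 (1.2%) lower, and in OCI-LY10 273 (2.08%) were higher and 212 (1.62%) lower. Genes past 2-fold in all lines numbered 30 higher, of which 28 were called, and 12 lower, of which 11 were called. Across the 13120 genes, which share arrays and are not independent, the changes of OCI-LY3 and OCI-LY10 correlated at r = 0.505, those of OCI-HBL1 and OCI-LY10 at 0.398 and those of OCI-LY3 and OCI-HBL1 at 0.383. KLHL14 fell by 1.93 on the log2 scale in OCI-HBL1 but by 0.48 in OCI-LY10, where its CPI203 level of 4.15 was already under the filter level.

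**Figure D3:**
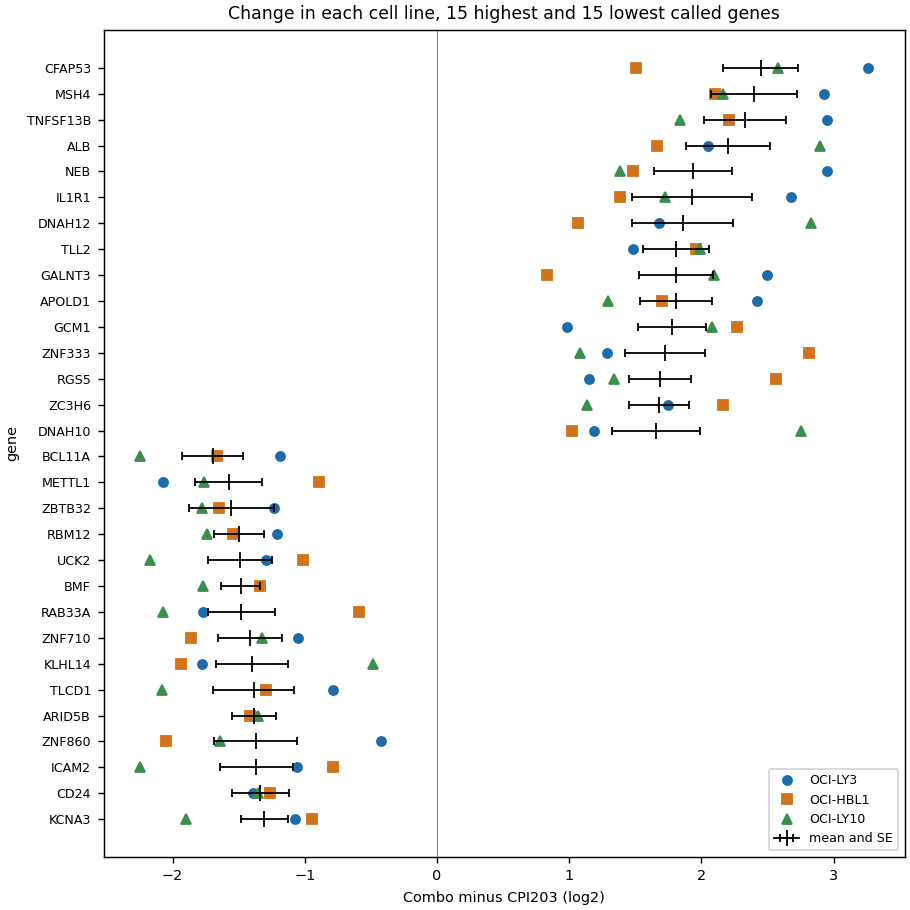
Change on adding IRAKi (Combo minus CPI203, log2, x axis) in each cell line for the 15 highest and 15 lowest called genes (y axis), with the mean of 3 lines in black. Its bar is the limma SE, from the spread pooled over all 12 arrays, and not the spread of the 3 lines. All 30 genes lie on 1 side of 0 in every line, which was a condition of their choice, and CFAP53 ranges from 1.50 to 3.26.

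Promoter sequence was available in the RefSeq table (GRCh38.p14, the 250 bases before the start and 50 after it) for 40 of the 50 genes with the highest called changes, 38 of the 50 with the lowest and 10679 of all tested. Of the motifs searched on both strands, the E-box CACGTG, the sequence bound by MYC and its partner MAX, was in 15.8% of the lowest group's promoters, 5% of the highest group's and 9.97% of all. The CCAAT box, CCAAT, was in 39.5%, 42.5% and 36.7%, and the TATA box, TATAAA, in 7.89%, 12.5% and 6.7%. The AP-1 motif TGANTCA was in 5.26%, 5% and 4.74%, the cAMP response element TGACGTC in 7.89%, 2.5% and 5.32%, and the start of the kappaB site, GGGANTT, in 13.2%, 12.5% and 16.5%. These shares are descriptions over 6 or fewer E-box promoters in a group. The upstream 250 bases are shown for the cytokine gene and the meiotic gene that rose and for a transcription factor gene that fell with an E-box, 5′ to 3′ on the plus strand, with the CCAAT box (or its reverse complement) or the E-box in capitals. They lie at chr13:108269379-108269628 for TNFSF13B, chr1:75796632-75796881 for MSH4 and chr19:35704308-35704557 for ZBTB32, and the marked motifs start 79, 228 and 55 bases before the gene's start. Other motifs are left in lower case, such as the CCAAT boxes of ZBTB32.
TNFSF13B: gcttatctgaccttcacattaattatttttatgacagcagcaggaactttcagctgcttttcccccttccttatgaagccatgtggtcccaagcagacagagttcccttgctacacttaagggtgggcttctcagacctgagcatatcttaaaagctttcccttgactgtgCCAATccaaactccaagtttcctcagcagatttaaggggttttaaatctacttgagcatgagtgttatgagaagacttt
MSH4: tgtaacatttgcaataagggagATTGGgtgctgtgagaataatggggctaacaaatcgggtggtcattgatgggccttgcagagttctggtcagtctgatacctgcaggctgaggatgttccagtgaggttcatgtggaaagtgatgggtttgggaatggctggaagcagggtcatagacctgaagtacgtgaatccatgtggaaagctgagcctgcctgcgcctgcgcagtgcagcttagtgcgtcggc
ZBTB32: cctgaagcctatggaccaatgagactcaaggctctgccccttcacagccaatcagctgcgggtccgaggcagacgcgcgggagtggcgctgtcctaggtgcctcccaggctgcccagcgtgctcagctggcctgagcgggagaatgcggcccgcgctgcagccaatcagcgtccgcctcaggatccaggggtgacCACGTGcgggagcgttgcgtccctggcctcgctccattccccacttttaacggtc

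RNA of the route that IRAKi targets was measured next. None of the 21 tested genes of MYD88, IRAK and TRAF6 signalling was called (median -0.03). MYD88 itself read 8.89, 8.36 and 9.28 with CPI203 and 8.57, 7.97 and 8.64 with Combo, lower in each line, but the change of -0.45 ± 0.13 was not past the test (adjusted p = 0.0768). TRAF6, the ubiquitin ligase below the IRAKs, stood at -0.48 ± 0.14 (adjusted p = 0.0891) and IRAK1 at -0.04 ± 0.17 (adjusted p = 0.931). IRAK4 had no probe set of its own. Of 15 tested Toll-like receptors and co-factors 1 rose, IL1R1, and none fell (6.67% called against 4.66% over all genes). TLR9, the endosomal DNA sensor, stood at -0.49 ± 0.27 (adjusted p = 0.35).

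Downstream, none of 25 NF-kB subunits, inhibitors and IKK genes was called (median -0.06). The subunit genes REL, NFKB1 and RELA stood at 0.46 ± 0.24, 0.10 ± 0.15 and -0.06 ± 0.17, and the inhibitor genes NFKBIA and TNFAIP3 at 0.28 ± 0.21 and -0.23 ± 0.31. Of 44 NF-kB targets 3 rose and 1 fell, a share of 9.09% called against 4.66% over all genes, with a median of 0.03. These counts turned to 0 higher and 2 lower on the poly-A scale and to 3 higher and 0 lower with cyclic loess. GADD45B, a stress-induced gene that can restrain JNK signalling, rose by 0.83 ± 0.15 (adjusted p = 0.0185), the apoptosis inhibitor gene BIRC2 by 0.64 ± 0.15 and IER3 by 0.54 ± 0.12. ICAM1, the adhesion molecule, read 7.85, 6.02 and 5.96 with CPI203 and 6.37, 5.42 and 5.05 with Combo, lower in each line (adjusted p = 0.0484, SE 0.24 on the log2 scale). The chemokine gene CCL3 was at 4.25 in OCI-LY3 in both groups and higher with Combo by 1.88 and 2.59 in the other lines (mean 1.49 ± 0.63, adjusted p = 0.216). None of 30 JAK-STAT3 loop genes was called (median -0.12), nor any of 20 chemokines and trafficking receptors (median 0.10, members from -1.88 to 1.49). In the interferon response 1 of 37 fell (2.7%), the mono-ADP-ribosyltransferase family gene PARP9 (-1.10 ± 0.20, adjusted p = 0.0199), and the median was 0.05.

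Of 36 B cell identity genes 5 fell and none rose, a share of 13.9% called against 4.66% over all genes, while 17 members were above 0 and 19 below, with a median of -0.01. Of the 8 tested markers that define B cells, 4 were above 0 and 4 below (median 0.04), and CD79B alone was called (12.5%). The 5 identity genes that fell were BCL11A, CD24, CD79B, CIITA and IKZF1. CD24, a surface glycoprotein, read 8.68, 6.27 and 10.23 with CPI203 and 7.29, 5.01 and 8.88 with Combo, which is a like fall in each line from very different levels (-1.34 ± 0.21, adjusted p = 0.0134). IKZF1, the lymphoid factor Ikaros, read 10.24, 9.01 and 9.94 and then 8.58, 8.49 and 8.52, at -1.20 ± 0.25 (adjusted p = 0.0317). The 3 Combo arrays lay close together, below every CPI203 array.

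Of 29 B cell receptor signalling genes 3 fell and none rose (10.3% called against 4.66% over all genes, median -0.18). CD79B, a signalling chain of the receptor, read 9.95, 11.15 and 9.90 with CPI203 and 8.74, 10.26 and 8.52 with Combo, at -1.16 ± 0.21 (adjusted p = 0.0211), and all lines fell. FCGR2B, the inhibitory Fc receptor, changed by -0.93 ± 0.20 and the adaptor gene HSH2D by -0.67 ± 0.15. Of 18 MHC class II genes with CIITA 2 fell, CIITA, their transactivator, by 0.87 on the log2 scale (SE 0.14) and HLA-DMB, a peptide-loading chaperone gene, by 1.04 (SE 0.16), which is 11.1% of that list against 4.66%, with a median of -0.06. None of 19 MHC class I and processing genes was called (median -0.05). Of 28 ABC lymphoma markers 2 fell, BMF and KCNA3 (7.14% against 4.66%), with 22 below 0, beside 51.9% of all genes, and a median of -0.24. The ABC factors IRF4 and BATF stood at -0.09 ± 0.26 and -0.72 ± 0.28 (adjusted p = 0.893 and 0.177). None of 19 germinal centre lymphoma markers was called (median -0.12). Of 23 plasma cell genes 1 fell (4.35%), the secretory factor gene CREB3L2 (-0.75 ± 0.13, median of the list 0.06).

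MYC read 11.07, 11.25 and 10.71 with CPI203 and 9.73, 10.85 and 9.37 with Combo. OCI-LY3 and OCI-LY10 fell by 1.34 on the log2 scale and OCI-HBL1 by 0.40, so that the Combo array of OCI-HBL1 stayed above the CPI203 array of OCI-LY10. The change was -1.03 ± 0.21 (adjusted p = 0.0311), and the call was lost in a fit of the Combo and CPI203 arrays alone. CPI203 and Combo changed MYC by -0.57 ± 0.21 (adjusted p = 0.11) and -1.60 ± 0.21 (adjusted p = 0.000593) against Control, 2 comparisons that share the Control arrays. No other of the 12 MYC network genes was called, so 8.33% of that list was called against 4.66% over all genes (median 0.04).

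Of 46 tested genes of ribosome biogenesis and MYC targets 10 fell and none rose, 21.7% against 4.66% over all genes. In all, 41 of the 46 were below 0, against 51.9% of all genes, and the median was -0.21, with -0.23, -0.18 and -0.22 in the 3 lines. POLR1A, the largest subunit of RNA polymerase I, read 8.57, 8.52 and 7.49 with CPI203 and 7.50, 7.42 and 6.79 with Combo, at -0.96 ± 0.15 (adjusted p = 0.0125). Each line fell, while OCI-LY10 was lower than the others throughout. POLR1B, the second largest subunit, changed by -0.80 ± 0.16 and RRS1, a ribosome assembly factor gene, by -0.87 ± 0.11. Of the 40 cytosolic ribosomal protein genes none was called, with 27 above 0 and a median of 0.02, which turned to -0.15 with all 40 below 0 relative to the poly-A controls. Biogenesis genes had a median of -0.38 on that scale, with 5 called lower in place of 10.

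Immediate early genes, which cells switch on within minutes of a stimulus, gave 4 risen and none fallen of 26 tested (15.4% against 4.66%), with 24 above 0 and a median of 0.41. NR4A3, an orphan nuclear receptor gene, read 4.71, 7.58 and 4.59 with CPI203 and 5.71, 9.02 and 6.91 with Combo, at 1.58 ± 0.36 (adjusted p = 0.0406). All lines rose, from levels near background in OCI-LY3 and OCI-LY10. KLF10 and KLF2, which encode zinc finger factors, rose by 0.88 ± 0.20 and 0.65 ± 0.15, and IER3 was the fourth. FOS, a component of AP-1, read 5.46, 7.30 and 7.66 with CPI203 and 5.48, 9.10 and 10.24 with Combo. It was level in OCI-LY3 and higher with Combo in the other lines, and its mean of 1.47 ± 0.71 was not past the test (adjusted p = 0.282). EGR1 stood at 0.60 ± 0.28 (adjusted p = 0.259), also with no gain in OCI-LY3. Relative to the poly-A controls, the list had 18 of 26 members above 0, a median of 0.24, 1 called higher and 1 lower.

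All 39 tested histone genes were above 0 (median 0.43), and none passed the test. The medians in the 3 lines were 0.25, 0.31 and 0.59. On the poly-A scale 32 of the 39 were above 0, with a median of 0.25. Near-identical histone copies can share probes, so single members are not given. Of 15 genes on the BET and P-TEFb list 2 rose, 13.3% called against 4.66% over all genes. The neuroserpin gene SERPINI1 rose by 1.16 ± 0.28 (adjusted p = 0.0493), but it encodes neither a BET protein nor a part of P-TEFb. AFF4, a scaffold of the super elongation complex, rose by 0.56 ± 0.13, though its other 4 probe sets above the filter stood below 0, at -0.30 to -0.06. With its probe sets averaged, AFF4 stood at 0.0084 and was not called (adjusted p = 0.978). HEXIM1, which holds P-TEFb inactive and is a common marker of BET inhibition, read 10.26, 10.17 and 10.61 with CPI203 and 9.99, 9.62 and 10.48 with Combo. It stood at -0.32 ± 0.20 (adjusted p = 0.422) and so did not pass, and BRD2 stood at 0.27 ± 0.10 (adjusted p = 0.178).

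Of 24 G1 cyclins, CDK inhibitors and GADD45 genes GADD45A and GADD45B rose (8.33% called against 4.66% over all genes, median 0.06), and neither was called on the poly-A scale. GADD45A, a growth arrest gene induced by DNA damage, read 8.16, 6.10 and 9.55 with CPI203 and 9.40, 7.25 and 10.13 with Combo, higher in each line, at 0.99 ± 0.21 (adjusted p = 0.0344). CDKN1A, the CDK inhibitor p21, was at 0.63 ± 0.21 and did not pass (adjusted p = 0.13). Of 26 p53 targets 2 were called (7.69%). TIGAR rose by 0.92 ± 0.13, with another probe set at -0.37, and TP53I3 fell by 0.79 on the log2 scale (SE 0.12). Of 36 genes in the ATF4 and integrated stress response list 2 rose (5.56%, median 0.13, or -0.04 on the poly-A scale). SLC7A11, the cystine transporter gene, read 5.03, 5.60 and 6.04 with CPI203 and 6.42, 6.94 and 6.92 with Combo, at 1.20 ± 0.26 (adjusted p = 0.0352). The groups did not overlap, and Control, at 6.86, 6.39 and 6.70, lay close to Combo. PPP1R15A, which helps to reverse the translational arrest of that response, rose by 0.82 ± 0.16.

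Of 22 NRF2 antioxidant targets 2 rose, SLC7A11 and the export pump gene ABCC2 (1.37 ± 0.24, adjusted p = 0.0176). KEAP1, the inhibitor of NRF2, fell by 0.60 on the log2 scale (SE 0.13), so 13.6% of the list was called against 4.66% over all genes. Of 25 heat shock genes 1 rose (4%), the co-chaperone gene DNAJB4 (0.82 ± 0.13). Of 8 aryl hydrocarbon receptor targets 1 rose (12.5%), TIPARP (0.61 ± 0.13). Of 32 autophagy and lysosome genes 1 rose (3.12%), FNIP1 (0.95 ± 0.14), a folliculin partner. Of 15 ERK feedback genes IER3 alone rose (6.67%, median 0.26). Of 24 cholesterol genes DHCR7, the last enzyme of one branch of that synthesis, fell by 0.62 (SE 0.12), 4.17% of the list. None of 23 unfolded protein response genes, 29 hypoxia and glycolysis genes or 28 proteasome subunit genes was called.

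Cell cycle genes gave 3 calls in 2 lists. Of 44 DNA replication genes 1 fell (2.27% called against 4.66% over all genes), GINS3 of the replicative helicase (-0.47 ± 0.10), with 33 below 0 and a median of -0.10. Of 40 mitosis and spindle genes 5% were called. CDC25C, a phosphatase of mitotic entry, rose by 0.61 ± 0.14. PRC1, a spindle midzone gene, changed by -0.48 ± 0.12, though another probe set of PRC1 stood at 0.12. Of 20 BCL2 family genes BMF fell and none rose (5%, median -0.06), and MCL1 stood at 0.26 ± 0.15 (adjusted p = 0.386).

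**Figure D4:**
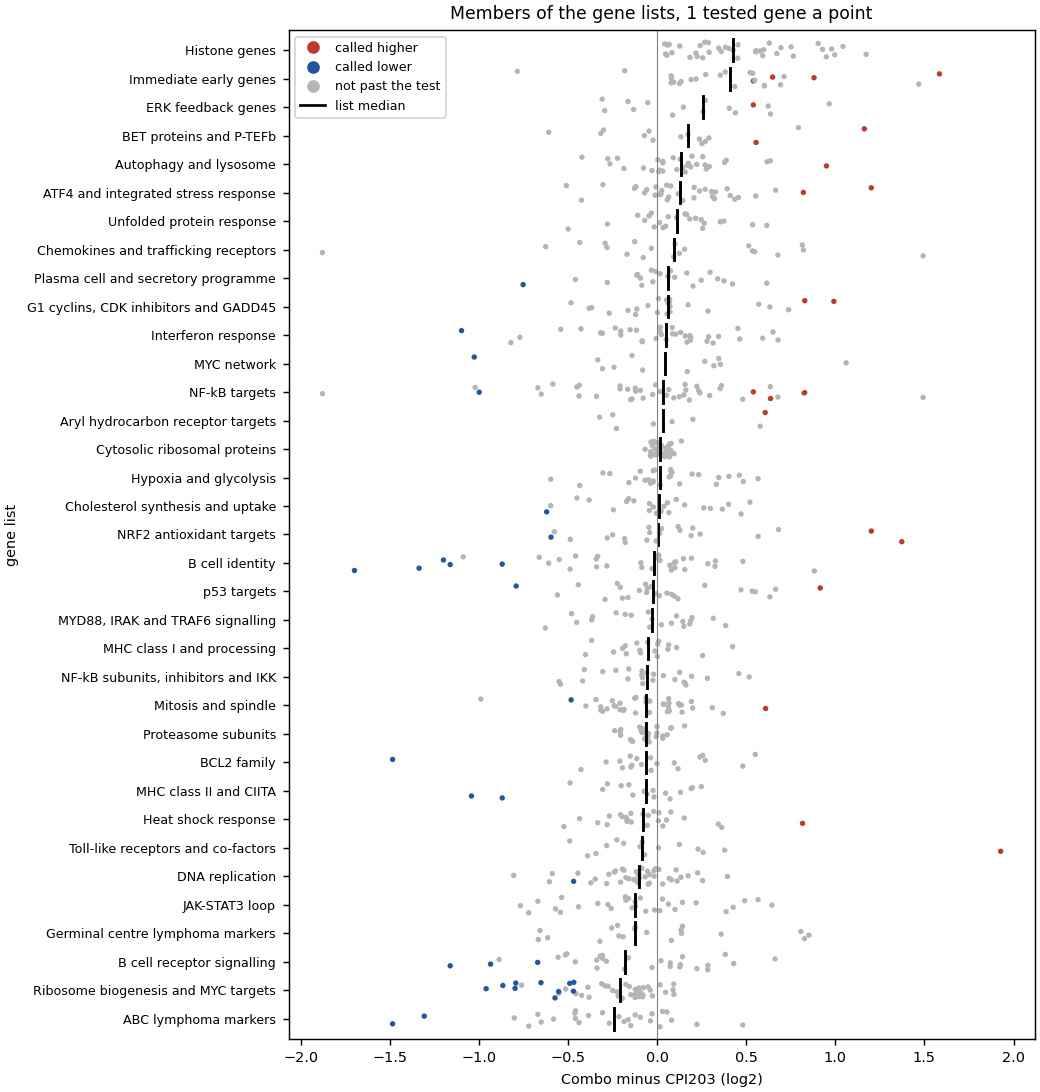
Change on adding IRAKi (Combo minus CPI203, log2, x axis) for the tested members of 35 gene lists (y axis, ordered by median), 1 gene a point, with called genes coloured and list medians as black bars. The histone and immediate early lists lie highest, at medians of 0.43 and 0.41, and the ABC lymphoma and ribosome biogenesis lists lowest, at -0.24 and -0.21.

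To ask whether IRAKi acted alike with and without CPI203, Combo minus CPI203 was set beside IRAKi minus Control. The changes share no arrays, but IRAKi minus Control pairs label times of 6 h and 24 h. Calling used a spread pooled over all 12 arrays, so it favoured genes of small spread in the IRAKi and Control arrays too. The shares of called genes below, those in all 3 lines among them, are thus not independent of the calling. Of the 257 genes called higher, 237 (92.2%) were also above 0 with IRAKi alone, against 49.9% of all genes, and 178 (69.3%) were so in all 3 lines, against 20%. Of the 355 called lower, 315 (88.7%) were below 0 with IRAKi alone, against 50.1% of all genes, and 225 (63.4%) in all lines, against 19.1%. The median changes with IRAKi alone were 0.37 and -0.27. Since genes were called for a large change with CPI203 present, a smaller median in the other comparison is not a test of a difference. With OCI-LY10 left out of IRAKi minus Control, 231 (89.9%) of the genes called higher were above 0, against 55.2% of all genes, and 302 (85.1%) of those called lower were below 0, against 44.8%. Across all genes the 2 changes correlated at r = 0.48 (rho = 0.429), and at 0.337, 0.293 and 0.357 within OCI-LY3, OCI-HBL1 and OCI-LY10, as a description over genes that share arrays within each change.

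IRAKi against Control gave 15 genes called higher (0.114%) and 7 lower (0.0534%). Of these 22, 16 were also called in Combo against CPI203, where 4.66% of all genes were called. Both tests use the same spread estimate for a gene, so genes of small spread pass both more easily. All but LINC00158 had the same sign in both. BMF was at -1.12 ± 0.15 without CPI203 and -1.48 ± 0.15 with it, KLHL14 at -1.90 ± 0.27 and -1.40 ± 0.27, and CD24 at -1.55 ± 0.21 and -1.34 ± 0.21. DNHD1, a dynein-related gene, was at 1.76 ± 0.16 and 1.29 ± 0.16, and the complement protease gene C1S at 1.56 ± 0.16 and 1.14 ± 0.16. The others called in both were HSH2D and CLECL1, lower, and FAM149B1, KATNBL1, MCF2, OSTM1, PAQR6, PGM2L1, SNORD72 and ZNF264, higher. In Combo against CPI203, another probe set of KATNBL1 above the filter stood at -0.21, and those of PAQR6 other than the chosen one at 0.03 to 0.16.

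The interaction term, the difference between the 2 changes, was past the test for 1 gene, the non-coding RNA LINC00158 (0.00762% of genes tested), while 1085 genes had an unadjusted p below 0.05. LINC00158 read 7.02, 7.03 and 6.86 in Control and 5.67, 5.79 and 5.20 with IRAKi, which is lower in every line. With CPI203 it read 4.58, 4.86 and 4.36, and with Combo 5.21, 5.79 and 4.76, which is higher in every line. IRAKi thus went with a change of -1.42 ± 0.15 without CPI203 and 0.66 ± 0.15 with it (interaction 2.07 ± 0.21, adjusted p = 0.0366). The call was lost without any 1 of the lines, without the OCI-LY10 IRAKi array and on the poly-A scale. ENTPD1, which encodes CD39, was at -1.22 ± 0.15 with IRAKi alone (adjusted p = 0.0286) and -0.04 ± 0.15 when IRAKi was added to CPI203, and the interaction of 1.18 did not pass (adjusted p = 0.44). TNFSF13B and IL1R1 had interactions of 2.04 and 2.51, which did not pass either (both adjusted p = 0.44).

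**Figure D5:**
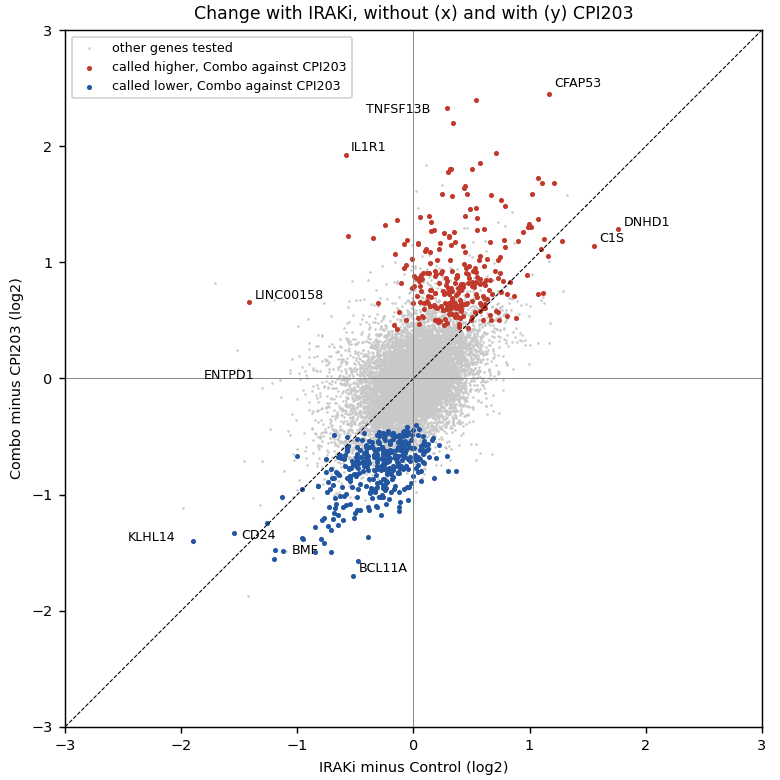
Change with IRAKi in the presence of CPI203 (Combo minus CPI203, log2, y axis) against its change without CPI203 (IRAKi minus Control, log2, x axis), 1 tested gene a point, the dashed line marking equal changes. Called genes mostly share the sign of both axes, 237 of 257 red points and 315 of 355 blue ones, and LINC00158 lies in the upper left.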

How the data were processed

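Total RNA of the 12 cultures was labelled from 150 ng per array, per the labels' protocols. The authors made the deposited log2 values with RMA in Affymetrix Expression Console 1.1, per the submitters' processing notes; RMA corrects background, quantile-normalizes arrays and sums probes into probe sets. Quantile normalization sets all arrays to 1 distribution, so a change shared by most genes cannot be seen. The genome build of the probe sets is not given in the sources used here.

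Of 49386 probe sets, 45253 named 1 gene in the platform annotation, 1327 several and 2713 none, and 93 were controls. Symbols were updated by gene ID to RefSeq's (99.68% of 18239). A gene was its probe set with the highest mean over the 12 arrays, tested where above the 40th percentile of all values (4.20) in at least 3 arrays, which left out 5119 genes. Chosen probe sets ending in x_at (1721) or s_at (2336) can share transcripts. All arrays were fitted with limma 3.58.1 in R 4.3.3 (data.table package, version 1.17.8) with treatment and cell line as terms, 6 residual and 3.66 prior degrees of freedom. Tests were two-sided and Benjamini-Hochberg adjusted over all genes tested, and the number of arrays limits precision. Lines pair the samples, since same-numbered arrays come from 1 line and deviated together from group means (correlations 0.89, 0.891 and 0.891). The procedure was tested on simulated data.

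The comparison and the 39 lists were chosen with earlier results of these data known. Genes named are the 15 highest and 15 lowest called changes of 1 direction in the 3 lines, up to 3 called members of a list in its commoner direction and up to 2 in the other, called interactions (up to 5 a direction), genes called with IRAKi both with and without CPI203, and a fixed set of 46 pathway genes. Of that set 42 were tested, none rose and 5 fell (MYC, BMF, ARID5B, KLHL14 and CD24). At an unadjusted p below 0.05, 2723 of all genes moved. Lists were counted and not tested. Alternatives changed the probe set rule, filter (none, or the 60th percentile at 5.70), scaling, variance moderation, array weights, cell line term, samples and threshold.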

Additional observations from a re-analysis of the deposited data

Results flagged for a closer look

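LINC00158 moved in opposite directions with IRAKi in every line, down without CPI203 and up with it, and the difference of 2.07 on the log2 scale passed the interaction test (limma, adjusted p = 0.0366). The label times of 6 h and 24 h differ in the comparison without CPI203, so time and treatment cannot be told apart there.

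Probe sets outside the gene-level comparison held further calls when tested by the same fit. Of 1634 tested probe sets with no named gene, 57 were called (3.49%), 35 higher and 22 lower with Combo than with CPI203. Of 860 tested probe sets that name several genes, 3 were called (0.349%), all higher.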

How the results depend on the processing

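The counts of 257 genes higher and 355 lower kept within 1.5 times with probe sets averaged per gene or taken singly, with both filters, median centring, cyclic loess, array weights, a random cell line block and without the OCI-LY10 IRAKi array, and also with the filter set on the 9 other arrays, an alternative chosen after seeing the data. The genes behind these counts were not all the same. With probe sets averaged, 158 of the 257 and 241 of the 355 were called again. With the 60th percentile filter, which left 9210 genes to test, 197 and 350 were. Scaled by poly-A controls, 78 were higher. With trend and robust estimation 569 were lower. With no replicate block, which ignores the pairing by line, 2 were higher and 0 lower (308 and 302 at an unadjusted p below 0.05), and the interaction gave 0. The 2 groups alone gave 102 and 96, and at least 2-fold gave 79 and 56. Leaving out 1 line gave 0 to 3 higher, 0 lower and 0 interactions (763 to 907 at an unadjusted p below 0.05). The interaction call was also lost (0 genes) on the poly-A scale, without the OCI-LY10 IRAKi array and with every probe set on its own, where limma gave 436, 1051 and 1823 genes at an unadjusted p below 0.05. Causes were not tested. None of the 77 called genes that are named changed sign under any alternative. Leaving out 1 line could not change a sign, since all of them moved one way in the 3 lines. A change of filter, variance moderation or cell line term could not either, because the log2 change itself stays the same. The same holds for the 2 groups alone and without the OCI-LY10 IRAKi array. Taking probe sets singly kept the chosen one, so opposite signs of other probe sets did not enter. Of the 77 named called genes, 75 to 77 lost the call when 1 line was left out, 23 on the poly-A scale and 35 with the 2 groups alone. With no replicate block 77 lost it, with a random cell line block 19 and with probe sets averaged 16. Genes that were not called turned sign as follows. NFKB1 stood at -0.0736 on the poly-A scale. Leaving out 1 line moved IRAK1 between -0.144 and 0.116, TNFAIP3 between -0.465 and 0.0563, IRF4 between -0.198 and 0.0627 and ENTPD1 between -0.196 and 0.0551. Values under 4.20 are near background, where a change may be understated.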

Other observations

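Some name groups stood out after their values were seen and are given with no test. Of 11 tested dynein heavy chain genes and relatives 3 were called higher with Combo than with CPI203 and none lower, DNAH10, DNAH12 and DNHD1. That is 27.3% higher against 1.96% of all genes, but DNAH10 and DNAH12 were tested only because of their level in Combo and had to differ. Of 26 cilia and flagella associated genes 3 were higher (11.5%), CFAP53, CFAP70 and CFAP206, and CFAP206 too was tested only because of its Combo level. Of 21 METTL methyltransferase genes 3 were lower (14.3%), METTL1, METTL8 and METTL25, against 2.71% of all genes, and of 6 NSUN RNA methyltransferase genes 1 was lower, NSUN4. The 408 tested ZNF zinc finger genes, with 8 higher (1.96%) and 9 lower (2.21%), were close to the shares over all genes.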
